A study of Danio rerio with 19 samples.

Results

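The microRNA miR-204 was followed with the 6 probes of the array whose name begins with dre-mir-204, in any case and on either arm of the hairpin, out of 7604 probes in all and 546 for known zebrafish miRNAs. The same rule looked for miR-211 and found 0 probes of that name. The miRNA was chosen by its measured ratio of Ras over control, which was high in adult melanoma, so its ratios are given as a description of the arrays and carry no test. Oncogenic human HRAS was expressed in 3 zebrafish models and the RNA of each Ras sample was hybridized against that of a control on 19 two-color arrays. The Ras RNA was labeled with Hy3 (green channel) and the control RNA with Hy5 (red channel) on every array, with no dye swap, so any dye bias of a probe stays in its ratio.

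In kita:Ras fish, Et(kita:Gal4TA, UAS:mCherry)hmz1 carried together with Tg(UAS:eGFP-HRASV12)io006, the kita promoter turns the oncogene on in melanocytes and also in the notochord. They were compared with AB wild-type fish on 4 arrays at 3 dpf and on 3 arrays each at 7 dpf, at 14 dpf and as adults. The zic:Ras larvae combined Et(zic4:Gal4TA4, UAS:mCherry)hzm5 with the same UAS transgene, which places the oncogene in brain cells, and were compared with AB wild type on 3 arrays at 3 dpf. The HS-Ras larvae, Tg(hsp70l:EGFP-HRASV12)io3, express the oncogene in the whole body after a heat shock of 30 min at 37°C and were collected 6 h later at 3 dpf. Their 3 controls were AB larvae given the same heat shock. A larval sample was a pool of 15 larvae at 3 and 7 dpf and of 5 larvae at 14 dpf, from different parents in each replicate. An adult sample was a single fin, with tumor in the Ras fish and from an AB fish as control. The labels name fin for both adult samples, and the titles of these arrays say adult tail. Another description of the study names skin for the adult control, so the control tissue of the adult ratio is given here as the labels have it. The labels do not give the age of the adults.

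In vertebrates, miR-204 and miR-211 are sister miRNAs with the same seed, the short stretch near the 5′ end that pairs with target mRNAs. The miR-204 gene lies in an intron of TRPM3 and the miR-211 gene in an intron of TRPM1, also called melastatin, which in human melanocytes is switched on by the pigment cell regulator MITF. Both miRNAs are known from pigmented cells, and miR-204 also from the retinal pigment epithelium and the lens. In the RefSeq annotation of the zebrafish assembly GRCz12tu, mir204-1 lies within trpm3, dre-mir-204-2 within trpm1a and mir204-3 within trpm1b. The array has probes named for mir-204-1 and mir-204-2 and none named for mir-204-3. Whether its names stand for the same loci could not be checked, since its design gives no coordinates.

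The array files hold the sequence of each probe, and the target given here is the reverse complement of its first 22 bases. Of the 6 probes, dre-miR-204_l, dre-mir-204-1_l and dre-mir-204-2_l carry an identical target, the left (5′) arm of the hairpin, so their readings are repeats of 1 sequence and cannot tell the loci apart. The left arm is shown first, with its seed (bases 2 to 8) in capitals. The targets of both right-arm probes follow, with the run that is complementary to bases 2 to 9 of the left arm in capitals, and then that of a second probe that the files also name dre-mir-204-1_l.
dre-miR-204_l: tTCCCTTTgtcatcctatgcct
dre-miR-204_r: gcagggacagCAAAGGGAggct
dre-mir-204-2_r: gctgggacagCAAAGGGAggtt
second probe named dre-mir-204-1_l: gagtaatagagggggctgggaa
Counted from the 5′ end of dre-miR-204_r, the right-arm targets differ by the substitutions A3T and C21T. The complementary run CAAAGGGA was searched for on the given strand and is in 2 of the 7604 targets, or 0.0263%, which are these right arms. The second probe named dre-mir-204-1_l differs from the left arm at 19 of its 22 bases. Its longest run complementary to the left arm has 5 bases, so that probe is described by itself under its name in the files. No other probe of the array had the seed TCCCTTT at bases 2 to 8 (0 of 7598). None came within 5 mismatches of the left arm either (0 of 7598), and the closest pair of probes differed from it at 8 bases.

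The 3 left-arm probes each have 2 spots on an array, and all of their spots were well above background in both channels on all 19 arrays. The ratio is given as log2 of Ras over control, so that 1 is a doubling, and as the mean of these 3 probes. In adult melanoma it was 4.39, 4.45 and 3.34 in replicates 1 to 3. The 3 adult values lay far above those of all larval arrays, with replicate 3 about a log2 unit below the other two. Their mean was 4.06 ± 0.63 (SD, n = 3), a 16.7-fold higher signal from the tumor-bearing fin than from the wild-type fin. Without replicate 3 the mean was 4.42. On the array of replicate 3, 1 spot each of dre-mir-204-1_l and dre-mir-204-2_l was among the 514 spots marked as outliers and was left out, and with these spots kept the adult mean was 4.06.

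**Figure D1:**
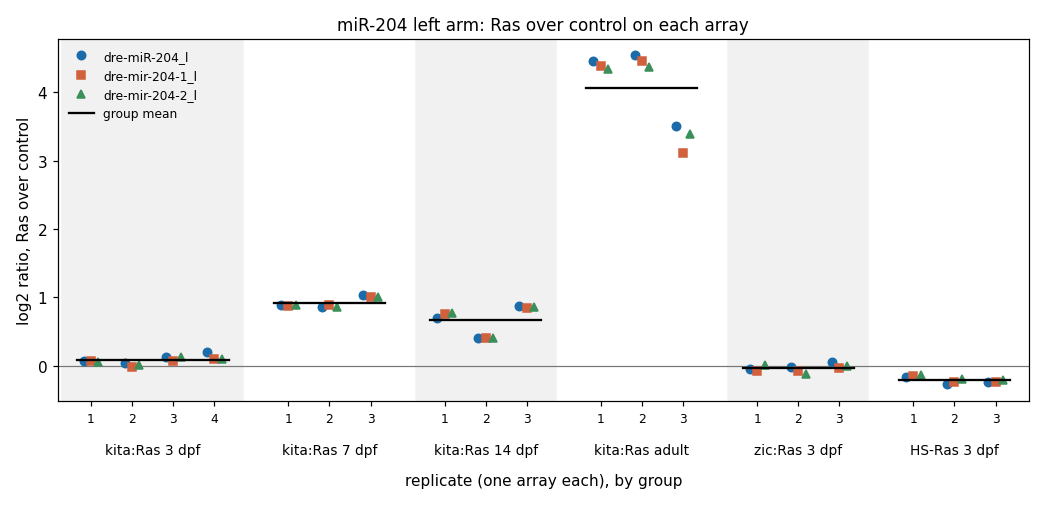
Log2 ratio of Ras over control (y axis) of the 3 left-arm probes of miR-204 on each of the 19 arrays (x axis, by group and replicate), with the group mean of the 3 probes as a line. The adult arrays sit between 3.11 and 4.54, the arrays at 7 and 14 dpf between 0.40 and 1.03, and the arrays at 3 dpf lie around 0.

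In kita:Ras larvae at 7 dpf the left-arm ratio was 0.88, 0.87 and 1.01, with a mean of 0.92 ± 0.08 (SD, n = 3) or 1.90-fold. At 14 dpf it was 0.74, 0.41 and 0.86, with a mean of 0.67 ± 0.24 (SD, n = 3) or 1.59-fold. All 6 arrays of these ages lay above those at 3 dpf. The highest array at 14 dpf reached just below the lowest at 7 dpf, and the difference between their means was about 1 SD of the group at 14 dpf. Without replicate 2, the lowest, the mean at 14 dpf was 0.80.

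At 3 dpf the left-arm ratio of kita:Ras was 0.07, 0.01, 0.11 and 0.14 on the 4 arrays, a mean of 0.08 ± 0.05 (SD, n = 4). The first and second of these arrays were on slide 1 and had a mean of 0.04, and the others were on slide 2 and had a mean of 0.12. In zic:Ras it was -0.03, -0.07 and 0.01, a mean of -0.03 ± 0.04 (SD, n = 3). In HS-Ras it was -0.15, -0.23 and -0.23, a mean of -0.20 ± 0.05 (SD, n = 3) or 0.87-fold. The 3 HS-Ras arrays lay below all other arrays of the series. The groups thus ran from adult melanoma through 7 dpf, 14 dpf and kita:Ras at 3 dpf to zic:Ras and HS-Ras. The values of neighbouring groups nearly met between 7 and 14 dpf and between kita:Ras and zic:Ras at 3 dpf.

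The probes of identical sequence gave nearly the same ratio. On a larval array the 3 probe ratios spanned between 0.01 and 0.11, and on an adult array between 0.13 and 0.40. Group means of the single probes in adult melanoma were 4.17 ± 0.57 for dre-miR-204_l, 3.98 ± 0.76 for dre-mir-204-1_l and 4.03 ± 0.55 for dre-mir-204-2_l (SD, n = 3 each). Their signals agreed less well than their ratios. Within 1 adult array the level of the 3 probes spanned 0.60 to 1.32 log2 units in the Ras channel, whereas on the larval arrays it spanned 0.01 to 0.29. The ratio of an adult array is therefore better determined than its level.

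To see in which channel the ratio moved, the level in each channel was taken as log2 of the processed signal relative to the median, on that array and channel, of 197 known probes well above background everywhere. This scale shows whether a probe changed against these others and gives no absolute amount. On slide 1, which held arrays of kita:Ras at 3, 7 and 14 dpf, the control level of the left arm was -0.36 and -0.36 at 3 dpf. It was -0.17, -0.25 and -0.32 at 7 dpf and -0.32, -0.45 and -0.44 at 14 dpf. The Ras level on the same slide was -0.31 and -0.48 at 3 dpf, 0.55, 0.50 and 0.63 at 7 dpf and 0.41, -0.02 and 0.34 at 14 dpf. Against 3 dpf on this slide, the Ras level was thus higher by 0.95 at 7 dpf and by 0.63 at 14 dpf, while the control level differed by 0.12 and -0.04. The higher ratio of the older larvae came with a higher level in the Ras channel and a smaller difference in the control channel.

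**Figure D2:**
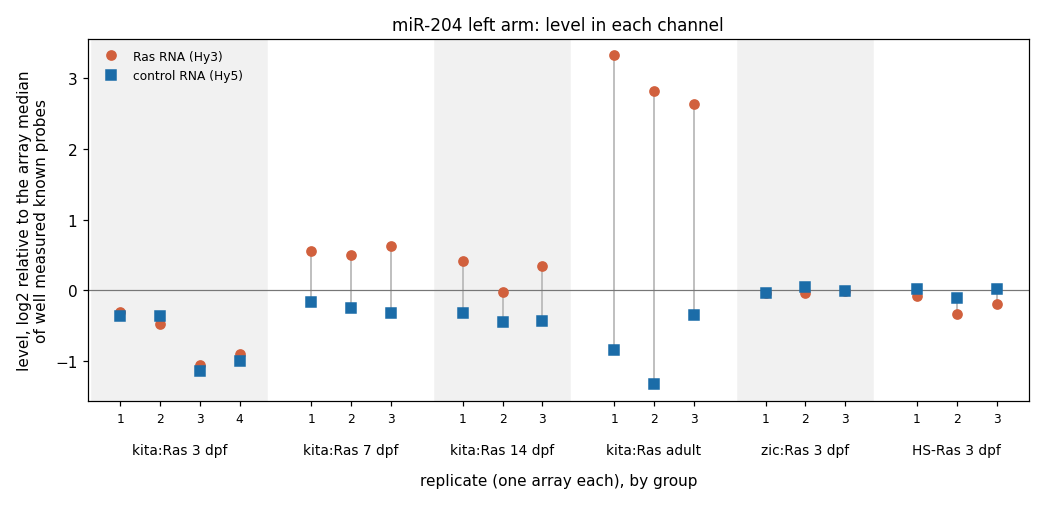
Level of the miR-204 left arm (mean of 3 probes) in the Ras channel (circles) and the control channel (squares) of each array, in log2 units relative to the median of 197 known probes, with a grey line joining both channels of an array. The Ras level of the adult arrays is between 2.63 and 3.33, above all other samples, and the control level of the adult fins is between -1.33 and -0.35.

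On slide 2, which held the adult arrays and the other kita:Ras arrays at 3 dpf, the Ras level was -1.06 and -0.90 at 3 dpf and 3.33, 2.82 and 2.63 in adult melanoma. The control level was -1.14 and -1.01 at 3 dpf and -0.84, -1.33 and -0.35 in adult fin. The Ras level in the tumor-bearing fin was higher than at 3 dpf by 3.91, and the control level by 0.23, which is less than the spread of the 3 adult controls (SD 0.49). The low ratio of adult replicate 3 went with both the highest control level and the lowest Ras level of the group. Slide 2 was dimmer than the others, with 49.0% to 60.1% of the spots of known probes well above background in the Ras channel, against 74.5% to 89.5% on slides 1 and 3. At 3 dpf the control level thus differed between slides 1 and 2 by more than between the replicates of a slide, so the differences within a slide are the ones given above. Against all 4 arrays at 3 dpf, on both slides, the Ras level was higher in adult melanoma by 3.61, at 7 dpf by 1.25 and at 14 dpf by 0.93, and the control level differed by -0.12, 0.47 and 0.32 in that order. The difference of the control level was thus of the other sign at 14 dpf and in adult fin, and that of the Ras level was not. In whole larvae and fins, more cells of a type and more RNA per cell cannot be told apart.

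The zic:Ras and HS-Ras arrays shared slide 3, and their controls were AB larvae of the same age without and with the heat shock. This contrast between controls played no part in the choice of miR-204 and was tested. The left-arm level was -0.04, 0.04 and -0.01 in the unshocked and 0.02, -0.11 and 0.02 in the heat-shocked controls, and the groups overlapped. The difference, heat-shocked minus unshocked, was 0.02 (95% CI -0.26 to 0.30) for dre-miR-204_l, with an adjusted p = 0.96 from limma. For dre-mir-204-1_l it was -0.04 (95% CI -0.32 to 0.24) and for dre-mir-204-2_l -0.05 (95% CI -0.37 to 0.28), both with an adjusted p = 0.95 from limma. The right-arm probe dre-mir-204-2_r had the largest difference of the 6, 0.31 (95% CI -0.11 to 0.74, limma adjusted p = 0.67). None of the 454 known probes was called in this contrast (0%, with 48 at an unadjusted p below 0.05 in limma), and miR-204 was like the other probes in having no call.

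The right arm of the hairpin is the strand that pairs with the left arm in the precursor. The ratio of dre-miR-204_r in adult melanoma was 0.79, 1.14 and 1.47, a mean of 1.13 ± 0.34 (SD, n = 3) or 2.20-fold, with all its spots well above background in both channels. For dre-mir-204-2_r it was 1.34, 1.13 and 1.71, a mean of 1.39 ± 0.30 (SD, n = 3) or 2.62-fold. The control channel of that probe was not well above background in replicate 3, which leaves 2 arrays measured in both channels. All 6 adult values of these right-arm probes were above 0 and above the larval values of the same probe, and all 6 were below the left-arm ratio of the same array. With another background correction and normalization of the same arrays (normexp and loess), the adult means were smaller, 0.60 for dre-miR-204_r and 0.23 for dre-mir-204-2_r, while the left arm had 3.80. The size of the right-arm ratio thus depended on how background and dyes were treated.

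**Figure D3:**
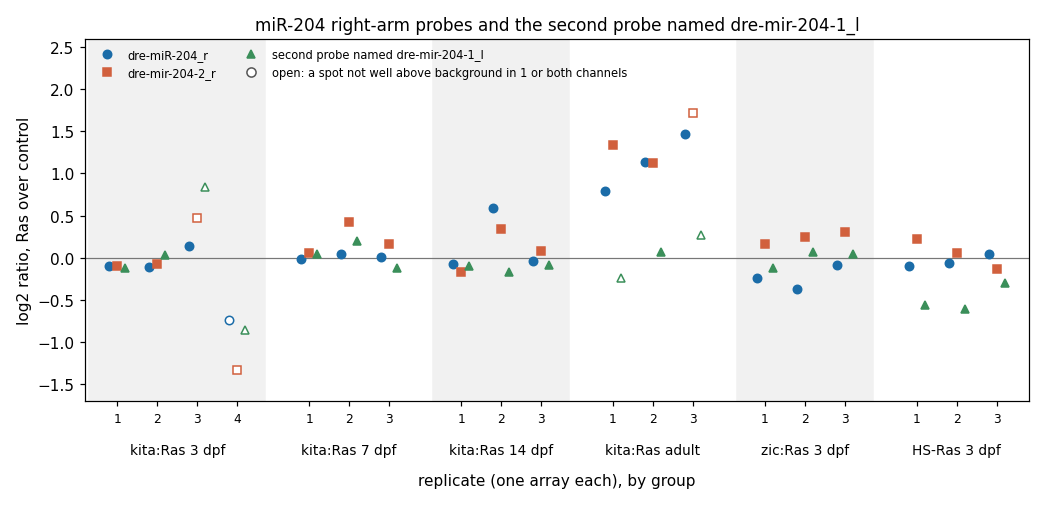
Log2 ratio of Ras over control (y axis) of the right-arm probes dre-miR-204_r and dre-mir-204-2_r and of the second probe named dre-mir-204-1_l on each array (x axis, by group and replicate). Open symbols mark arrays on which a spot was not well above background in 1 or both channels. The right-arm probes are between 0.79 and 1.71 in adult melanoma and the second probe is between -0.24 and 0.26 there.

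In larvae the right arms did not follow the left arm. At 7 dpf, where the left arm had a ratio of 0.92, dre-miR-204_r had -0.02, 0.04 and 0.00, a mean of 0.01 ± 0.03 (SD, n = 3). The probe dre-mir-204-2_r had 0.06, 0.42 and 0.16, a mean of 0.21 ± 0.19 (SD, n = 3). At 14 dpf dre-miR-204_r had -0.07, 0.59 and -0.04, a mean of 0.16 ± 0.38 (SD, n = 3), and dre-mir-204-2_r had -0.17, 0.34 and 0.08, a mean of 0.09 ± 0.26 (SD, n = 3). Replicate 2 was the highest for both right arms at 14 dpf and the lowest for the left arm. At 3 dpf on slide 2 the right-arm spots of kita:Ras were partly not well above background and scattered widely, between -1.34 and 0.47, whereas on slide 1 all 4 values were between -0.11 and -0.08. In zic:Ras the right arms had opposite signs, with a mean of -0.23 ± 0.15 for dre-miR-204_r and 0.24 ± 0.07 for dre-mir-204-2_r (SD, n = 3 each). In HS-Ras the means were -0.04 ± 0.07 and 0.05 ± 0.18 (SD, n = 3 each).

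Which strand or locus the second probe named dre-mir-204-1_l reads was not settled from the files, and its ratios followed those of neither arm. In adult melanoma its ratio was -0.24, 0.07 and 0.26, a mean of 0.03 ± 0.26 (SD, n = 3), and 1 of these arrays had all spots well above background in both channels. At 7 dpf its mean was 0.04 ± 0.16 and at 14 dpf -0.12 ± 0.05 (SD, n = 3 each). Its lowest group was HS-Ras with -0.56, -0.61 and -0.30, a mean of -0.49 ± 0.17 (SD, n = 3), and these 3 values were below those of the other arrays, except kita:Ras replicate 4 at 3 dpf with -0.86. With normexp and loess the HS-Ras mean was -0.24.

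Among the known probes measured in each comparison, the left arm had the 3 highest ratios of 346 in adult melanoma. The next highest was dre-mir-34_l, the left arm of the p53 target miR-34, with a mean log2 ratio of 2.66 ± 0.31 (SE, n = 3). At 7 dpf the left-arm probes were 6th to 8th of 496, below dre-mir-451_l at 1.57 and the probes dre-mir-144_r at 1.34 and dre-mir-144_l at 1.21. At 14 dpf they were 7th to 9th of 500. At 3 dpf they were 50th to 82nd of 384 in kita:Ras, 242nd to 305th of 454 in zic:Ras and 391st to 410th of 452 in HS-Ras. The median ratio of all known probes measured was -0.18 in adult melanoma and -0.16 at 14 dpf, and between -0.05 and 0.01 in the other comparisons.

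**Figure D4:**
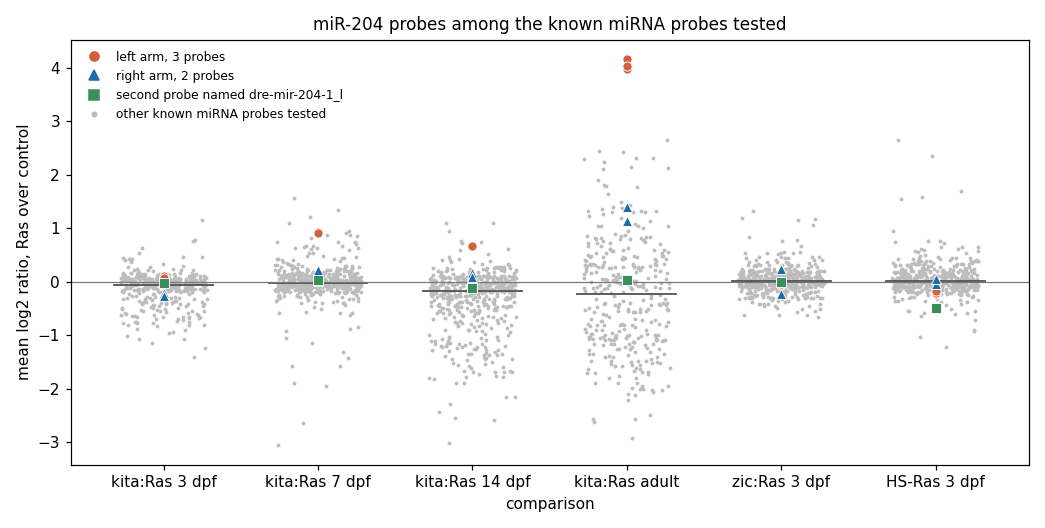
Mean log2 ratio of Ras over control (y axis) of the miR-204 probes in each comparison (x axis), with each other known miRNA probe that was measured as a grey point, spread sideways for sight, and the median of these as a dark line. In adult melanoma the 3 left-arm probes, at 3.98 to 4.17, lie above all other probes.

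To set miR-204 beside miRNAs of the cells that a larva or a fin can hold, 122 probes of other miRNAs in 7 lists were tested with limma. A probe was called at a Benjamini-Hochberg adjusted p below 0.01 and a fold above 1.2. The share of some lists in the summed signal differed between the larval samples and the adult samples labelled as fin. The brain list (miR-9, miR-124, miR-128, miR-138, miR-153 and miR-219) took between 25.3% and 37.0% of the summed signal of known probes in larval samples and between 0.626% and 1.33% in the adult fins. The muscle list (miR-1, miR-133, miR-206 and miR-499) took between 15.8% and 20.5% in adult control fin and between 8.40% and 11.4% in the tumor-bearing fin. In larval samples it took between 5.65% and 9.93%, less than in any adult control. How much tissue other than fin the adult samples held was not tested. The epidermis list (miR-141, miR-200, miR-203, miR-205 and miR-429) took between 5.03% and 5.85% in adult control fin and between 1.19% and 3.08% in the tumor-bearing fin.

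The pigment cell list held miRNAs that act on MITF or KIT in human or mouse cells, miR-137, miR-148, miR-152, miR-182, miR-218, miR-221 and miR-222, with 22 probes. In adult melanoma 15 of them were measured, with a median log2 ratio of -0.11, and 1 was called (4.34% of all known probes were called lower), dre-mir-182_l at -2.0 ± 0.30 (SE, n = 3, limma adjusted p = 0.00559). At 7 dpf 0 of 21 were called in limma, with a median of 0.07, against 1.81% of all known probes called higher. At 14 dpf 3 of 18 were called, all lower, which was no more than the 20% of all known probes called lower. These were dre-mir-221_l at -1.49 ± 0.23 and dre-mir-222_l at -1.39 ± 0.20 (SE, n = 3, limma adjusted p = 0.000826 for both), and dre-mir-218a-1_r at -1.45 ± 0.30 (limma adjusted p = 0.00272). They read the left arms of the sister miRNAs miR-221 and miR-222 and the right arm of miR-218. No probe of the opposite arm of these miRNAs was called, so these calls are of single arms and not of the miRNAs as a whole. The summed signal of the list at 14 dpf was between 2.43% and 2.58% in kita:Ras and between 2.37% and 2.49% in the controls. In adult melanoma the median of this list was near that of all known probes. The list was drawn up by action on MITF or KIT, so its median does not measure the share of pigment cells.

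In adult melanoma, 2 of the 86 list probes measured were called higher, against 4.05% of all known probes, and 6 were called lower, against 4.34%. The probes called higher were dre-mir-138_l at 2.29 ± 0.27 and dre-miR-138_l at 2.31 ± 0.27, of the brain list (SE, n = 3, limma adjusted p = 0.00289 for both). The 6 called lower held 1 or 2 probes of each of the pigment cell, eye, epidermis, muscle, brain and white blood cell lists. The probe dre-mir-182_l belongs to both the pigment cell and the eye list. Among them were dre-mir-200c_l at -2.10 ± 0.31 (limma adjusted p = 0.00532), the left arm of an epithelial miRNA, and dre-mir-206-1_l at -2.02 ± 0.28 (limma adjusted p = 0.00434), the left arm of a muscle miRNA. Another was dre-mir-155_l at -2.56 ± 0.32 (limma adjusted p = 0.00289), the left arm of a miRNA of activated white blood cells. Beside dre-mir-182_l, the others were dre-mir-499_r at -1.90 and dre-mir-9-4_r at -1.69. For none of the miRNAs called lower was a probe of the opposite arm called. The list medians were -1.96 for the eye (5 probes measured of 10), -1.55 for the epidermis (11 of 16), -1.09 for muscle (17 of 20), -1.05 for brain (29 of 44), -1.27 for white blood cells (6 of 8) and -0.34 for red blood cells (4 of 4), beside -0.18 over all known probes measured. The eye list (miR-96, miR-182, miR-183 and miR-184) took between 0.0452% and 0.133% of the summed signal in the tumor-bearing fin and between 0.265% and 0.352% in control fin. For brain and white blood cells the summed signal did not follow the median ratio. The brain list took more in the tumor-bearing fin, 0.879% to 1.33%, than in control fin, 0.626% to 0.784%. The white blood cell list took 0.0633% to 0.222% and 0.130% to 0.167%, in that order, so its shares overlapped. Tissue makeup itself was not measured, and its part in the ratio of miR-204 was not tested. The number of adult list calls rested on single arrays, with 0 called without replicate 1 or without replicate 3 and 32 without replicate 2.

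At 7 dpf, 3 of 117 list probes were called, all higher, against 1.81% of all known probes called higher. They were dre-mir-451_l at 1.57 ± 0.14 (SE, n = 3, limma adjusted p = 2.6e-05), dre-mir-144_l at 1.21 ± 0.14 (limma adjusted p = 8.45e-05) and dre-mir-144_r at 1.34 ± 0.21 (limma adjusted p = 0.00128), miRNAs of the red blood cell lineage, each higher on 3 of 3 arrays. The summed signal of the red blood cell list was between 1.03% and 1.12% in kita:Ras and between 0.379% and 0.411% in the controls at 7 dpf, the age at which the left arm of miR-204 was also higher. The eye list had 0 of 10 probes called at this age and a median of -0.18. At 14 dpf, 1 list probe was called higher, dre-mir-451_l at 0.73 ± 0.14 (limma adjusted p = 0.00205), against 1.4% of all known probes, and 35 of 117 were called lower, against 20%. The 35 included 15 of 44 brain probes, 9 of 20 muscle probes and 3 of 9 probes of the eye list. Among those of the eye list, dre-mir-96_r was at -1.76 ± 0.28 and dre-mir-184_l at -1.68 ± 0.35 (SE, n = 3, limma adjusted p = 0.00113 and 0.00291). They read the right arm of miR-96, a miRNA of sensory cells, and the left arm of miR-184, known from lens and cornea. The brain calls read the left arm of miR-124 and miR-153 and the right arm of miR-9, miR-138 and miR-219. The muscle calls read the left arm of miR-1, miR-133 and miR-206 and the right arm of miR-499. No probe of the opposite arm of these miRNAs was called, so the counts are of single arms. Many of the called probes are named for different loci of the same miRNA, so the counts are of probes and not of separate miRNAs. The summed signal of whole lists differed little at 14 dpf. The brain list took between 25.3% and 25.6% in kita:Ras and between 25.4% and 26.2% in the controls. For muscle it was 5.98% to 6.75% and 5.77% to 6.38%, and for the eye 0.730% to 0.811% and 0.810% to 0.901%, in that order. On the same arrays the left arm of miR-204, also known from the eye, had a ratio above 0. The part of eye tissue in that ratio was not tested. The count at 14 dpf was 11 without replicate 2 and 19 without replicate 1. Fitting each larval comparison by itself, with 3 arrays to set the spread, called 0 list probes at 7 and at 14 dpf.

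At 3 dpf, 0 of 95 list probes were called in kita:Ras, against 0.781% of all known probes, and 0 of 108 in zic:Ras, against 1.1%. At an unadjusted p below 0.05 limma had 15 and 11, beside 86 of 384 and 70 of 454 over all known probes. In HS-Ras 1 of 108 was called, lower, against 0.664%. It was dre-mir-150_r at -0.72 ± 0.14 (SE, n = 3, limma adjusted p = 0.00805), of the white blood cell list, and it was not called when any 1 of the 3 HS-Ras arrays was left out.

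The known sequences whose ratio followed the left arm most closely over the 19 arrays were ranked by Spearman correlation, as a description, since arrays share slides and groups. Of 277 sequences, the 5 most alike were dre-mir-193b_r (rho 0.84), dre-mir-125b-3_r (0.82), dre-mir-365-1_r (0.80), the probe named dre-mir-739_l with the target shown here (0.79), and dre-mir-365-1_l (0.73). Their targets are given with bases 2 to 8 in capitals, to show that none shares the seed of miR-204 or comes close to its left arm.
dre-mir-193b_r: aACTGGCCcgcaaagtcccgct
dre-mir-125b-3_r: gGGCAGAGggcaaaagcactgg
dre-mir-365-1_r: tAATGCCCctaaaaatccttat
dre-mir-739_l: cGGGTGGAgccgccgcgggcgc
dre-mir-365-1_l: aTGAGGGGcttttgggggcact
They differ from the left arm of miR-204 at 16 to 18 of 22 bases. The genes of miR-193b and of miR-365-1 are neighbours in the RefSeq annotation of GRCz12tu, with mir365-1 starting within 10000 bases of mir193b.

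The ratio of dre-mir-193b_r was 2.11 ± 0.59 in adult melanoma (SD, n = 3), 0.75 ± 0.11 at 7 dpf, 0.37 ± 0.12 at 14 dpf and 0.22 ± 0.20 (n = 4) at 3 dpf. For dre-mir-365-1_r the adult ratio was 2.25 ± 0.18 and the ratio at 7 dpf 0.66 ± 0.14 (SD, n = 3 each). Both means were higher at 7 than at 14 dpf, as was that of the left arm of miR-204. The other members of this group had adult means between 1.14 and 1.33. In HS-Ras the mean of dre-mir-193b_r was 0.09 ± 0.20 (SD, n = 3), against -0.20 for the left arm. Over the 16 larval arrays alone, ranked by Pearson correlation, 2 of these 5 stayed among the 5 most alike, dre-mir-193b_r and dre-mir-365-1_r, and dre-mir-451_l came first with r = 0.88, as against a rho of 0.24 over all 19 arrays. The others were dre-mir-152_r, of the pigment cell list, with r = 0.79 and a rho of 0.72 over all 19 arrays, and dre-mir-144_l with r = 0.78. The likeness to miR-451 was thus one of the larval arrays. In adult melanoma 0 of the 4 red blood cell probes were called, and their median of -0.34 was near the -0.18 of all known probes measured.

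**Figure D5:**
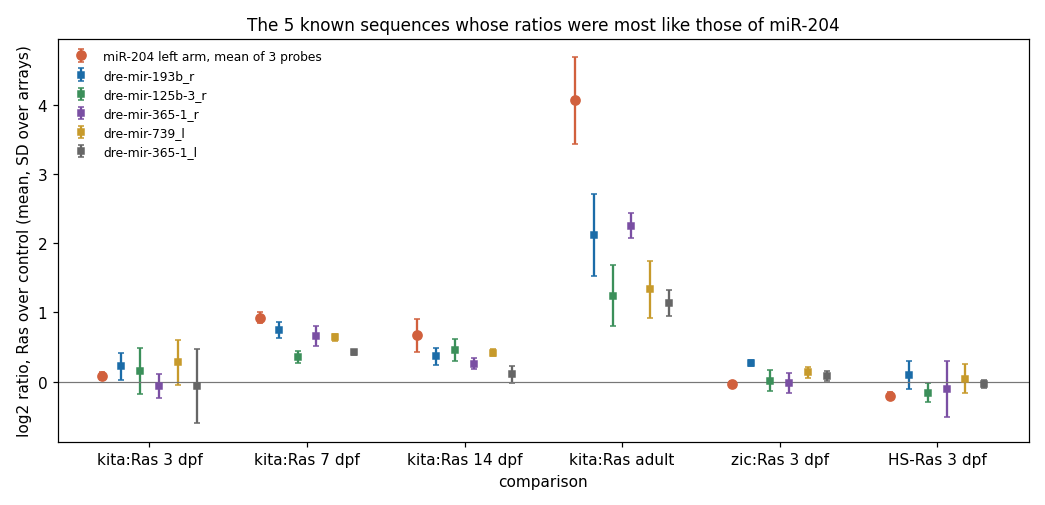
Mean log2 ratio of Ras over control (y axis, bars are the SD over arrays, n = 4 for kita:Ras at 3 dpf and n = 3 elsewhere) of the miR-204 left arm and of the 5 known sequences with the most similar ratios over the 19 arrays, in each comparison (x axis). In adult melanoma the left arm of miR-204, at 4.06, is above the others, which lie between 1.14 and 2.25.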

How the data were processed

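The authors labelled total RNA of Ras fish with Hy3 and of control fish with Hy5, hybridized both on custom arrays and extracted them with Agilent Feature Extraction 9.5.3.1 (per the labels). Each array carries 7604 probes in 2 spots. The intensities deposited by the authors are background-subtracted and dye-normalized, in scanner units. The deposited log10 ratios, of red over green, were changed in sign and divided by log10 of 2, which makes a value above 0 a higher signal in the Ras channel. The deposited value table holds the same ratios. The array design was built on the assembly danRer2, and no coordinates are given.

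Outlier spots were left out and spots of a probe averaged. Ratios that the software set to exactly 0 were kept (0 of the 228 spots of miR-204 probes). A known probe was tested when well above background in either channel on 3 of 4 or 2 of 3 arrays. Group means were set against 0 by a two-sided limma test (version 3.58.1, R 4.3.3), in a fit of 16 larval arrays and another of 3 adult arrays, with Benjamini-Hochberg adjustment over the known probes tested. The contrast of heat-shocked and unshocked controls used the control channel. Replicates differed in parents, and their number limits precision. The fit was also run on simulated normal noise with known shifts, without the filter on dim probes, exact zeros or slide differences. That run does not give the error rate on these arrays. Files were read with Python 3.11.15, pandas 2.3.3 and numpy 2.4.6, and plots drawn with matplotlib 3.10.9.

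The miRNA, its probes and the lists were chosen with earlier results of these data known. The text names all probes the rule found, the list probes called (at most 10 in a comparison), the 5 known sequences with the highest Spearman correlation with the left arm (above background on at least 15 arrays), and probes within 5 mismatches of it or with its seed. The probes dre-mir-34_l, dre-mir-451_l, dre-mir-144 and dre-mir-152_r beside ranks were named after their values were seen. Alternatives were normexp (offset 50) with loess, centring on well measured probes, the value table, single probes, slides alone, exact zeros left out, no filter, an adjusted p below 0.05, a replicate block, separate fits, quantile and Aquantile normalization, and each array left out. Keeping the outlier spots was added after the data were seen.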

Additional observations from a re-analysis of the deposited data

Results flagged for a closer look

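The left arm of miR-204, as the mean of its 3 probes, was above 0 on every array of the 4 kita:Ras groups and below 0 on every HS-Ras array. At 3 dpf the kita:Ras values were near 0, with dre-mir-204-1_l alone at -0.016 on replicate 2. With normexp and loess the kita:Ras mean at 3 dpf was 0.017 ± 0.10 (SD, n = 4), a spread that puts some arrays below 0. Its mean log2 ratio exceeded that of HS-Ras by 0.28 in kita:Ras at 3 dpf, by 1.12 at 7 dpf, by 0.87 at 14 dpf and by 4.26 in adult melanoma. The ratio of dre-miR-204_r was above 0 on the 3 adult arrays and below 0 on the 3 zic:Ras arrays, with means 1.37 apart. These differences between groups were not tested. The groups lie on different slides, apart from the tissue, age and heat shock that separate them.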

How the results depend on the processing

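The left arm of miR-204 kept its value within 1 SD between replicates under 57 alternatives and moved further under 1, kita:Ras at 3 dpf, at 0.017 with normexp and loess. Many of the 57 could not have moved further. Leaving out 1 array, or taking 1 slide of kita:Ras at 3 dpf, cannot shift a mean by 1 SD, and the value table holds the same ratios. Leaving out 1 array gave 3.86 to 4.42 in adult melanoma, 0.88 to 0.95 at 7 dpf and 0.57 to 0.80 at 14 dpf. For the other probes, normexp and loess moved dre-miR-204_r in adult melanoma to 0.60, dre-mir-204-2_r to 0.23 there and to 0.13 in zic:Ras, and the second probe named dre-mir-204-1_l to -0.014 at 14 dpf and -0.24 in HS-Ras. The differences in level between ages, taken against all arrays at 3 dpf, stayed within 1 SD under all 54 alternatives, but that SD holds the difference between slides. Leaving out 1 array or taking the same slide alone could not have gone beyond that SD, so only Aquantile normalization could have. With the same slide alone the control difference went from 0.47 to 0.12 at 7 dpf, from 0.32 to -0.04 at 14 dpf and from -0.12 to 0.23 in adult fin. List calls were less stable. With normexp and loess they were 8 at 7 dpf (3 shared with the main result) and 7 in HS-Ras, and in adult melanoma 7, of which 2 were shared. Without a filter they were 0 in adult melanoma and 15 in HS-Ras. At an adjusted p below 0.05 they were 4 in kita:Ras at 3 dpf, 5 at 7 dpf, 59 in adult melanoma and 9 in HS-Ras. The main HS-Ras result was 1 call, lower, and the direction of the HS-Ras calls was not kept. With normexp and loess 6 of the 7 were higher, without a filter 6 of the 15, and at an adjusted p below 0.05 5 of the 9. With each comparison fitted alone, by which fewer arrays set the spread, they were 0 at 7 dpf, at 14 dpf and in HS-Ras. Leaving out 1 array gave 2 to 5 calls at 7 dpf, 11 to 34 at 14 dpf, 0 to 32 in adult melanoma and 0 to 0 in HS-Ras. Of the 5 sequences most alike to miR-204, 2 were shared with a ranking that changed both the measure, to Pearson, and the arrays, to the larval ones.

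The labels give the groups the same replicate numbers, which do not mark shared parents. With the replicate number as a block, the larval list calls were 0 in kita:Ras at 3 dpf, 3 at 7 dpf, 33 at 14 dpf and 0 in both HS-Ras and zic:Ras, and the heat-shock difference of the left-arm probes had an adjusted p = 0.99 from limma in place of 0.95 to 0.96. Same-numbered heat-shocked and unshocked controls had deviations from their group means that correlated at -0.42, -0.19 and -0.06 over 197 probes. Pairs of unlike number correlated between -0.35 and 0.45. With so few arrays in a group, these values cannot show whether same-numbered samples had anything in common. The adult fit could not hold the block. The cause of each change was not tested. Dim right-arm spots on slide 2 limit what the arrays show of that strand.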
